A study of Mus musculus with 10 samples.

Results

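The comparison described here asks whether the response to carcinogen treatment differed between 2 genotypes of mice. For each gene it takes the log2 change from liver to tumour in mice lacking MLK3 and subtracts the log2 change in wild-type mice. All 10 libraries of the study entered this contrast, out of 10 in all, and it was computed for 15811 genes with enough counts. A positive value means that the change in knockout (KO) mice lay above the change in wild-type (WT) mice, and a negative value that it lay below.

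All animals were male C57BL/6 mice aged 11 months. WT liver (2 libraries) and KO liver (2 libraries) came from mice that drank plain water. WT tumours (3 libraries) and KO tumours (3 libraries) came from mice injected intraperitoneally with diethylnitrosamine (DEN) at 5 µg per g body weight when they were 2 weeks old. After a pause of 1 week these mice drank water with 0.05% phenobarbital (PB) until they were killed. KO mice lacked MLK3, the product of Map3k11. Neither the deleted stretch of the gene, nor the cells that lack it, nor the way tumours were dissected is stated in the labels. Treated libraries are labelled tumour and water libraries liver, so the treatment and the tumour cannot be told apart, and "tumour" below stands for both.

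MLK3 is a mixed-lineage kinase that phosphorylates MKK4 and MKK7, the kinases that activate JNK. DEN is turned into a DNA-alkylating agent by cytochrome P450 enzymes of hepatocytes. PB promotes the growth of initiated hepatocytes and activates the nuclear receptor CAR, which induces drug-metabolising enzymes such as the Cyp2b and Cyp2c families. Adult male mouse hepatocytes also carry a sex-specific programme, set by pulses of growth hormone acting through STAT5b, and a zonal programme in which Wnt signals near the central vein maintain genes such as Glul.

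Messenger RNA was counted by 3' tag sequencing. Totals ran from 12408749 to 18081487 counts per library, so that 3 counts in a library correspond to 0.156 to 0.231 CPM, that is, counts scaled to a common library size. Levels below are CPM scaled by TMM (trimmed mean of M values) factors. Changes are log2 values with their standard errors (SE) from edgeR. Each adjusted p is that of edgeR's quasi-likelihood test after Benjamini-Hochberg adjustment over all genes tested. A gene is called when its adjusted p is under 0.05. Map3k11 stood at 12.2, 9.54 and 14.3 CPM in the WT tumours against 7.92 and 14.9 in WT liver, with 10.0, 10.3 and 5.84 in the KO tumours against 5.38 and 5.81 in KO liver. Reads of the gene were thus present in the KO libraries, and because the deleted part is not given, the level does not check the labels. The library KO tumour 2 stood apart from KO tumours 1 and 3. The fetal marker Afp was at 3.84 CPM in it, against 446 and 169 CPM in the other KO tumours, and the tumour marker Gpc3 at 0.489 CPM, against 46.9 and 48.9 CPM. Whether the tissue behind it was tumour or liver cannot be told from these values, so it is named by its label, and means over the KO tumours include it unless stated. The main counts are also given without this library.

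The response differed between genotypes for 251 genes, which is 1.59% of the genes tested. Of these, 193 were positive (1.22%) and 58 negative (0.367%). Without KO tumour 2, 219 genes were called, 170 positive and 49 negative, and 203 of them were among the 251. The median of the difference over all genes tested was 0.0285. The gap was wide among the positive genes, with a median log2 value of 3.27, and narrower among the negative ones, where it was -2.34. The largest group by name was the major urinary protein genes, and it was joined by other male-biased hepatocyte genes, pericentral genes, bile acid genes and Cyp2c genes. The negative side held abundant plasma proteins, such as albumin, and genes at low levels in liver, such as Unc5b, Smox and Hbegf.

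Most of the difference between responses went with a change in WT tumours. In WT mice 1318 genes (8.34%) passed the test between tumour and liver, 575 higher (3.64%) and 743 lower (4.7%), and 1499 passed in the fit without KO tumour 2. In KO mice 12 genes passed (0.0759%), all of them higher. That count rests on single libraries: it was 202 without KO tumour 2 and 3 without either KO tumour 1 or KO tumour 3. It was 54 without WT liver 1, 50 without WT liver 2, 6 without WT tumour 1 and 7 without WT tumour 2. Among the 193 positive genes, 184 fell in WT tumours, while in KO tumours 5 rose and no gene passed in the other direction. Among the 58 negative genes, 56 rose in WT tumours and none passed the test in KO tumours. The WT change and the difference between responses share 5 libraries, so these counts describe the genes and add no separate evidence. The KO change lay between -1 and 1 on the log2 scale for 214 of the 251 genes, with medians of -0.18 for the positive and -0.03 for the negative genes.

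**Figure D1:**
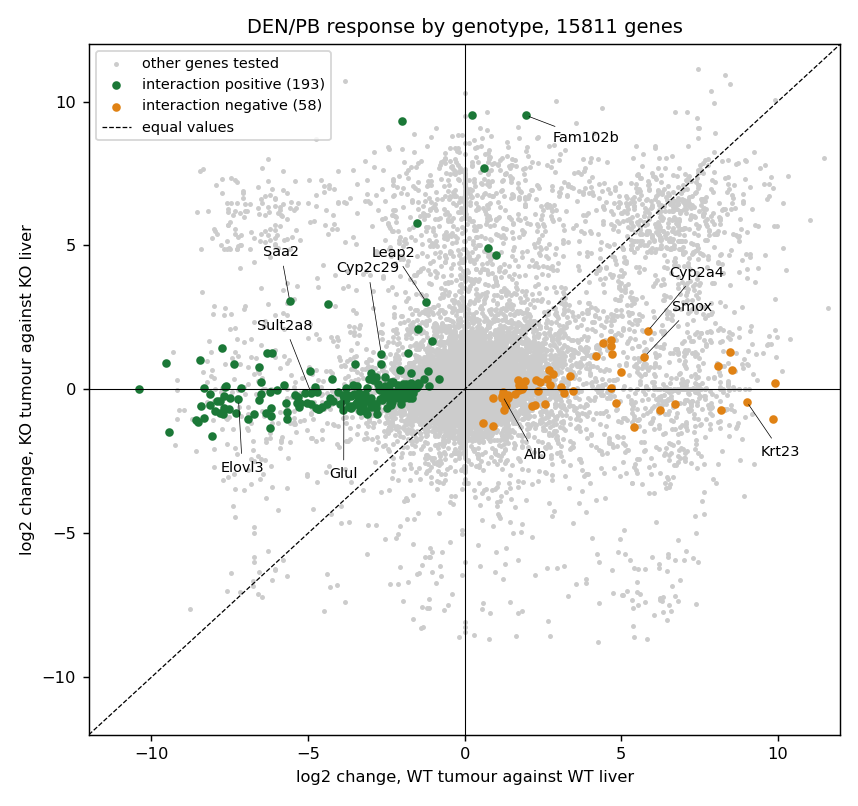
Log2 change from liver to tumour in WT mice (horizontal axis) and in KO mice (vertical axis) for the genes tested, with the 193 positive genes in green, the 58 negative genes in orange and equal changes on the dashed line; genes beyond the axes are not drawn. Most green points lie at the left and most orange points at the right, close to the horizontal line of no change in KO mice.

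The KO tumours were not without a response. The 743 genes that fell in WT tumours had a median KO change of -0.31, and 584 of them (78.6%) were below 0 in KO mice. The 575 genes that rose in WT tumours had a median KO change of 0.66, and 475 of them (82.61%) were above 0. Over all genes tested the median KO change was 0.06, with 46.3% of genes below 0 and 53.01% above. The medians of the same genes in WT mice, -1.64 and 2.27, come from the values that chose them. Per library, the median difference from KO liver over the 743 lower genes was -0.52 in KO tumour 1, -0.06 in KO tumour 2 and -0.41 in KO tumour 3. For the 575 higher genes it was 0.87, 0.09 and 0.76. KO tumour 2 was thus nearer to KO liver on both lists than KO tumours 1 and 3. The difference between responses was called for 184 of the 743 lower genes (24.76%) and for 56 of the 575 higher genes (9.739%). The share over all genes tested was 1.588%, and the WT libraries that chose these genes are part of that difference.

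**Figure D2:**
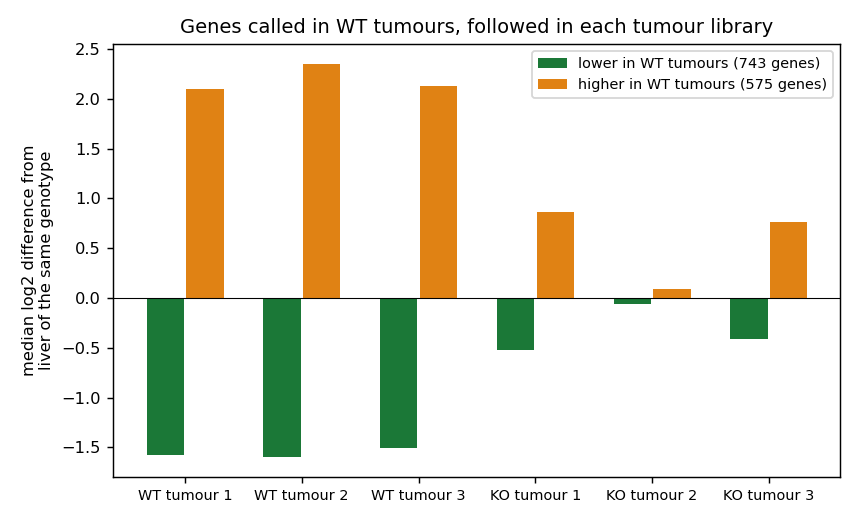
Median log2 difference (bars, log2 of CPM plus 0.5) of each tumour library from the mean of liver of the same genotype, for the 743 genes lower (green) and the 575 genes higher (orange) in WT tumours. The WT bars come from the values that chose the genes; the KO bars run from -0.52 to -0.06 and from 0.09 to 0.87, with KO tumour 2 nearest to 0.

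Genotypes were also compared within each treatment. In tumours 715 genes (4.52%) differed between KO and WT, 514 higher (3.25%) and 201 lower (1.27%) in KO, and 459 did so without KO tumour 2. In water-treated liver 1 gene passed (0.00632%), Fam102b, which had no counts in KO liver. Of the 251 genes, 224 were called between the tumours and 1 between the livers. KO and WT tumour libraries did not overlap for 242 of the 251, against 3648 of the 15811 genes tested (23.1%). The same tumour libraries are part of the difference that chose the 251 genes, so these counts describe the genes and add no separate evidence. For 225 of the 251 the fitted genotype difference was larger in tumour than in liver. The other 26 were set more by a difference between livers. They hold 9 positive genes, among them Fam102b, Timm22 and Atxn1, and 17 negative genes, among them Per3, Krt23, Hbegf, Btc, Cdkn2a and Nckap1l.

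**Figure D3:**
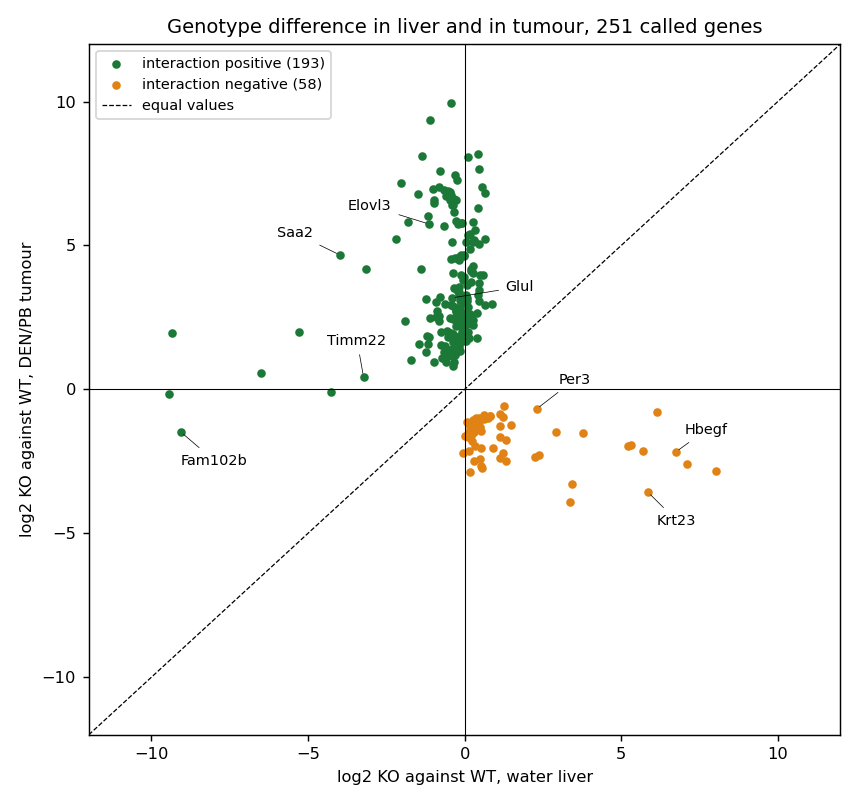
Log2 difference of KO against WT in water-treated liver (horizontal axis) and in DEN/PB tumours (vertical axis) for the 251 called genes, positive in green and negative in orange, with equal values on the dashed line. The green points form a column above 0 near the vertical line of no difference in liver, while Fam102b lies far to the left and Krt23 and Hbegf lie to the right.

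Over all genes tested, 1.22% were called positive and 0.367% negative, and each list count below is to be read beside these shares. The lists overlap, with 36 genes on more than 1 list, so their counts are not separate from each other. Male-biased hepatocyte genes, which depend on the male pattern of growth hormone, made up the largest share of any list. Of 28 tested, 20 were called positive and none negative. The 20 include Mup21, Mup12, Mup7, Mup11, Mup1 and Mup3, of the major urinary protein family described below, and the pair Cyp4a12a and Cyp4a12b. They are thus not 20 independent genes, and the count is not separate from that of the major urinary protein family. Without KO tumour 2 the number was also 20, but Ugt2b1 was no longer called. All 28 values were above 0, with a median of 4.05, against 0.0285 over all genes. The list's median change was -4.36 in WT mice and -0.51 in KO mice. In bulk RNA, fewer cells of a type and less RNA per cell cannot be told apart, here and below. Elovl3 elongates very long chain fatty acids and is a male-biased gene. It stood at 2.34, 1.67 and 3.66 CPM in the WT tumours against 391 and 376 in WT liver, with 79.5, 192 and 142 in the KO tumours against 191 and 160.4 in KO liver. The WT tumours lay far below every other library, and the KO tumours overlapped KO liver. The difference between responses was 6.87 ± 0.53 (SE, adjusted p = 6.67e-06). Cyp7b1 hydroxylates oxysterols in bile acid synthesis. It was at 3.59, 3.13 and 8.34 CPM in the WT tumours against 408 and 315 in WT liver, with 180.4, 216 and 126 in the KO tumours against 224 and 323 in KO liver. The WT tumours again did not overlap any other group, and the difference was 5.51 ± 0.54 (adjusted p = 4.85e-05). Hsd3b5, a male-specific steroid dehydrogenase, differed by 5.86 ± 0.80 (adjusted p = 0.00117) and missed the threshold with limma-voom. Egfr, the receptor for epidermal growth factor, had a smaller difference of 2.29 ± 0.46 (adjusted p = 0.0163), which missed the threshold without WT liver 1, KO liver 1 or KO liver 2. Complement C6 (3.11 ± 0.46) and the cytochrome Cyp2d9 (2.99 ± 0.49) were called in every alternative tried.

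The smallest p of the comparison belonged to Sult2a8, a sulfotransferase gene on chromosome 7 (14410686 to 14446769, minus strand, GRCm38) that acts on bile acids. Its level was 7.5, 7.5 and 7.31 CPM in the WT tumours against 199 and 246 in WT liver, with 164, 224 and 156 in the KO tumours against 205 and 188 in KO liver. The 3 WT tumours were nearly identical, and the KO tumours overlapped both livers. In means, WT tumours held 7.44 ± 0.108 CPM (SD, n = 3) and KO tumours 181 ± 36.8 CPM (SD, n = 3). The WT change was -4.90, the KO change -0.12, and the difference 4.79 ± 0.34 (adjusted p = 6.67e-06).

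The major urinary protein (Mup) genes encode secreted pheromone carriers and form a cluster on chromosome 4, where 34 of the tested members lie between 59956804 and 62150863. Members are near-identical and their counts are uncertain one by one, so their sum is given first. The 49 Mup genes and pseudogenes in the table took 0.4331%, 0.1452% and 0.6316% of all counts in the WT tumours against 13.44% and 14.29% in WT liver, with 8.499%, 9.735% and 6.381% in the KO tumours against 9.575% and 12.63% in KO liver. The KO tumours overlapped KO liver at its lower end, and the WT tumours were far below. The log2 difference between responses of this share was 4.90 (two-sided exact permutation of genotype within treatment, p = 0.01667, the smallest that the 120 arrangements can give, adjusted to 0.1833 over 11 summed shares). By gene, 24 of 35 tested members were called, all positive, with values from 4.55 to 10.4. Without KO tumour 2 the number was 24 of 33. Mup19, the most abundant of the named members, was at 408, 146 and 175 CPM in the WT tumours against 53461 and 54878 in WT liver, with 23472, 31678 and 16882 in the KO tumours against 33419 and 51789 in KO liver. Its difference was 6.97 ± 0.61 (adjusted p = 1.54e-05). Mup10 held 6, 2 and 2 counts in the WT tumours, but the level of 1 member does not stand for the others.

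**Figure D4:**
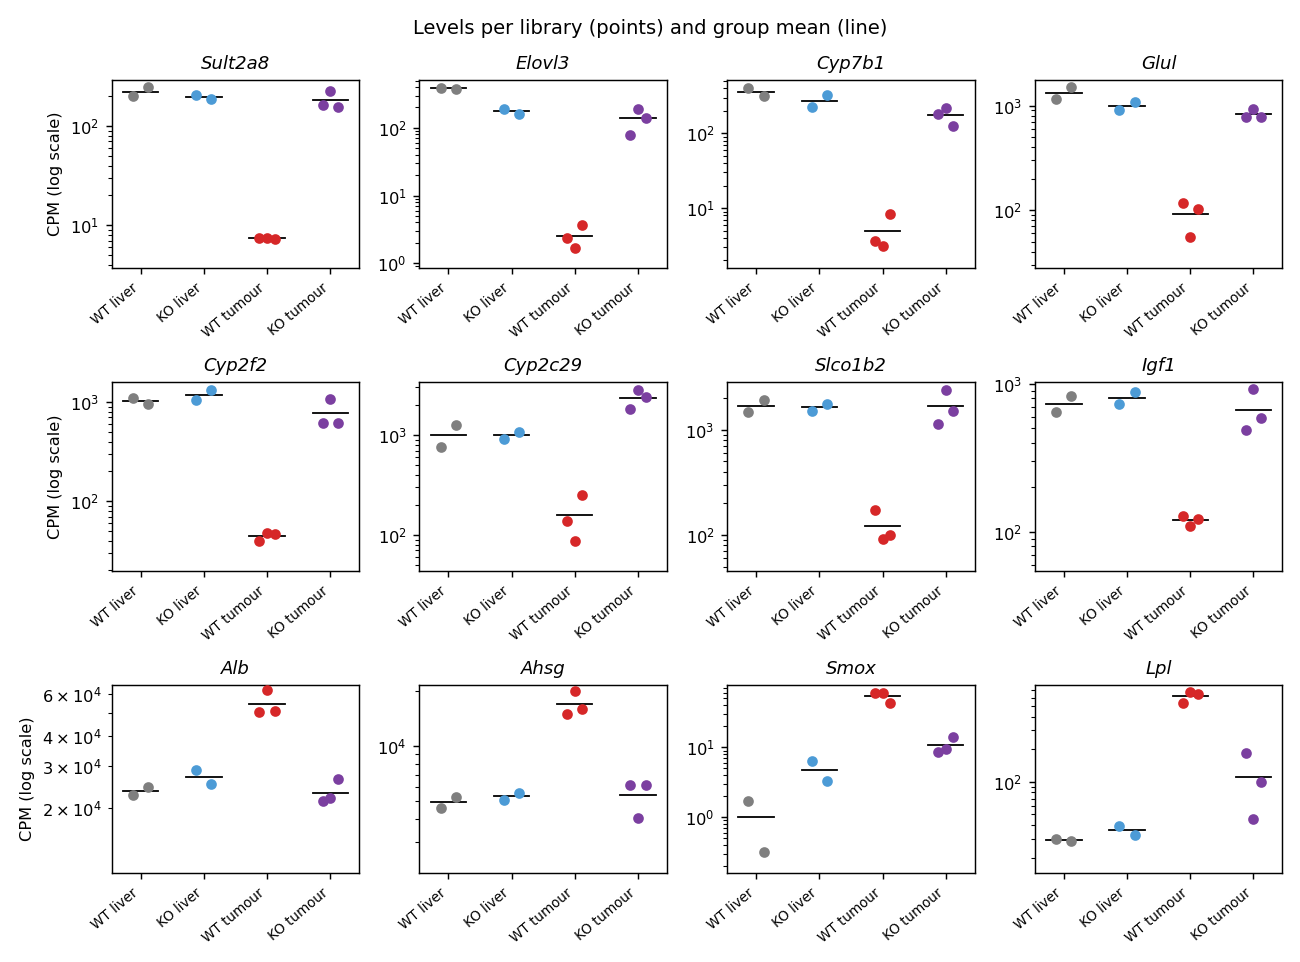
Level in CPM (log axis) of 12 genes in each library (points) with the group mean (line). For Sult2a8, Elovl3, Cyp7b1, Glul, Cyp2f2, Cyp2c29, Slco1b2 and Igf1 the WT tumours lie below the other 3 groups, and for Alb, Ahsg, Smox and Lpl they lie above.

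Promoter sequence is shown for 3 positive genes, picked after a search for the palindrome that STAT5 proteins are known to bind, since growth hormone acts through STAT5b. None of the 3 is on the male-biased list. The search covered 79 windows of 68 named genes and not every named gene. Among these 68, only Slco1b2 and Slc10a1 held the palindrome, and both are shown. Sult2a8 is shown as the gene with the smallest p. The sequences are from RefSeq (GRCm38.p6), 300 bases each, from 250 before to 50 after a transcript start, on the strand of the gene. The palindrome TTCNNNGAA, which reads the same on both strands and was the only motif searched, is in capitals where the search found it.
Slco1b2, chr6:141629268-141629567, plus strand: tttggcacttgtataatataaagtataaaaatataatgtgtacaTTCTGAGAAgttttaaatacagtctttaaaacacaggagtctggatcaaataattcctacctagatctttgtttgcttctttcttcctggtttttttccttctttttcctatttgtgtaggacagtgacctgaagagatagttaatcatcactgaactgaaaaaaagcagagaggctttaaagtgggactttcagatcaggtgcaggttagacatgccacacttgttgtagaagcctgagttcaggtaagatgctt
Slc10a1, chr12:80968656-80968955, minus strand: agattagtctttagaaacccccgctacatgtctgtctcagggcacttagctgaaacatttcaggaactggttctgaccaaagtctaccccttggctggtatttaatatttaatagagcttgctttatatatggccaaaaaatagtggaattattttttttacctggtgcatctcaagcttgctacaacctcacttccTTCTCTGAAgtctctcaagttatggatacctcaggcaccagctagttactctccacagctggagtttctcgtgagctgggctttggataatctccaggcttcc
Sult2a8, chr7:14446538-14446837, minus strand: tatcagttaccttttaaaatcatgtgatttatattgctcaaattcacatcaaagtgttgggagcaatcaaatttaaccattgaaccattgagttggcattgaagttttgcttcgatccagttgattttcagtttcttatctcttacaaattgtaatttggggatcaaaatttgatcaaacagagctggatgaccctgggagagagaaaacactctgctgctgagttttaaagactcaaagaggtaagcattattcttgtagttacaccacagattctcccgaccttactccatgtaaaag

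The palindrome began at position -206 from the transcript start in Slco1b2 and at -53 in Slc10a1, and was absent from this window of Sult2a8. It was also absent from a second listed window of Slc10a1 and of Sult2a8, and from the listed windows of the named Mup genes, Cyp2f2, Igf1, Ghr and Glul. Among genes with a promoter in the table it was present in 2 of 19 male-biased genes (10.5%), 13 of 138 positive genes (9.42%) and 4 of 47 negative genes (8.51%), against 932 of 10940 genes tested (8.52%). The shares of the positive and negative genes were close to that of all genes tested. A match is a description of letters and not of a binding site. The named gene Hbegf had no window among those searched for the named genes, so the palindrome was not looked for there.

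Bile acid synthesis and transport genes had 8 of 29 members called positive and none negative, with a median of 1.56. The count was also 8 without KO tumour 2, with a median of 1.11. Of the called members, Cyp7b1 and Slco1a1 are also on the male-biased list and Cyp27a1 is on the pericentral list. The share called was 27.6%, against 1.59% of all genes tested. A pair of uptake transporters on the blood side of the hepatocyte had the next smallest p-values after Cyp7b1. Slco1b2, an organic anion transporter, was at 173, 91.2 and 101 CPM in the WT tumours against 1461 and 1919.9 in WT liver, with 1137, 2401 and 1516 in the KO tumours against 1519.5 and 1759 in KO liver, a difference of 3.84 ± 0.48 (adjusted p = 0.000437). Slc10a1, which imports conjugated bile acids with sodium, was at 19.6, 10.5 and 25.1 CPM in the WT tumours against 158 and 165 in WT liver, with 121, 244 and 144 in the KO tumours against 150.1 and 181 in KO liver, a difference of 3.17 ± 0.49 (adjusted p = 0.0031). For both, the KO tumours spanned the liver values and the WT tumours lay below them. Cyp27a1, which starts the acidic route of bile acid synthesis, and Baat, which conjugates bile acids to amino acids, were also called, at 2.37 ± 0.38 and 2.28 ± 0.43.

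Wnt targets and pericentral genes had 10 of 26 members called positive and none negative, 9 without KO tumour 2, with a median of 1.67. The median change of the list was -2.31 in WT mice and -0.16 in KO mice. Glul, glutamine synthetase, was at 119, 55.5 and 102 CPM in the WT tumours against 1159 and 1502 in WT liver, with 783, 932 and 779.6 in the KO tumours against 907 and 1088 in KO liver. KO tumours overlapped KO liver while WT tumours did not overlap any other group, and the difference was 3.59 ± 0.41 (adjusted p = 0.000202). Oat, which makes glutamate semialdehyde from ornithine, differed by 4.41 ± 0.62, and Rgn, a calcium-binding lactonase, by 3.55 ± 0.56. Cyp2e1, which activates nitrosamines, was at 184, 51.0 and 82.4 CPM in the WT tumours against 1704 and 2160.3 in WT liver, with 1154, 2424 and 1654 in the KO tumours against 1920.4 and 2704 in KO liver, a difference of 3.78 ± 0.62 (adjusted p = 0.0043). Direct Wnt targets were mixed. Tbx3, a transcription factor, was at 4.01, 3.64 and 7.89 CPM in the WT tumours against 40.025 and 81.0 in WT liver, with 22.7, 49.2 and 18.8 in the KO tumours against 40.8 and 27.3 in KO liver. Its difference of 3.37 ± 0.67 was called (adjusted p = 0.016) and missed the threshold without WT liver 2 or KO liver 2. Axin2 had a difference of 4.98 ± 1.81 (adjusted p = 0.249) at 0 to 12.7 CPM, and Lgr5 one of 0.18 ± 0.95. Neither of these passed the test, nor did Notum, Rnf43, Znrf3, Nkd1 or Sp5.

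CAR and PB target genes had 8 of 39 members called positive and none negative, 6 without KO tumour 2, with a median of 1.05. Here some KO tumours exceeded liver. Cyp2c29 was at 138, 87.3 and 252 CPM in the WT tumours against 761 and 1251 in WT liver, with 1829.9, 2845 and 2424 in the KO tumours against 911 and 1084 in KO liver. Every KO tumour was above and every WT tumour below all 4 livers. The WT change was -2.66 (adjusted p = 0.00025), the KO change 1.25 (adjusted p = 0.25), and the difference 3.91 ± 0.53 (adjusted p = 0.00104). Cyp2c37 (4.59 ± 0.57) and Cyp2c54 (5.92 ± 0.86) were called as well, and these 3 genes were called in every alternative tried. Of 15 Cyp2c genes tested, 4 were called positive, these and Cyp2c50, and none negative, against 1.59% of all genes tested. The others, among them Cyp2c38, Cyp2c39, Cyp2c55 and Cyp2c70, were not called. Cyp3a11, a major drug-metabolising cytochrome, differed by 2.42 ± 0.49 and missed the threshold without KO liver 1 or KO tumour 3. Cyp2b10, the standard marker of CAR activation, gave 0, 6 and 56 counts in the WT tumours against 43 and 0 in WT liver, with 1184, 1165 and 1589 in the KO tumours against 22 and 0 in KO liver. The KO tumours stood above all other libraries, but the difference of 7.18 ± 1.83 missed the threshold (adjusted p = 0.07). Its value is not stable, since single liver libraries hold all or none of the counts, and it ran from -0.19 to 13.53 as single libraries were left out. Cyp2b9 rose in both genotypes and its difference was not called (adjusted p = 0.891).

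Periportal and nitrogen genes were mixed, with 4 of 24 called positive and 1 negative, and the same numbers without KO tumour 2. Cyp2f2, the periportal cytochrome, was at 39.6, 47.6 and 46.3 CPM in the WT tumours against 1108 and 968 in WT liver, with 622, 1073 and 611 in the KO tumours against 1045 and 1333 in KO liver, a difference of 3.91 ± 0.38 (adjusted p = 4.85e-05). G6pc, the last step of gluconeogenesis, differed by 3.95 ± 0.43. Igf1, the circulating growth factor made under growth hormone, was at 127, 109 and 123 CPM in the WT tumours against 641 and 826 in WT liver, with 491, 922 and 588 in the KO tumours against 727 and 882 in KO liver, a difference of 2.34 ± 0.38 (adjusted p = 0.00381). In the list of hepatocyte transcription factors and receptors 1 of 29 was called (3.45%), near the share of 1.59% over all genes tested. That gene was Ghr, the growth hormone receptor. It was at 90.1, 90.4 and 75.5 CPM in the WT tumours against 419 and 467 in WT liver, with 320.2, 574 and 302 in the KO tumours against 437 and 431 in KO liver, a difference of 2.25 ± 0.38 (adjusted p = 0.00519). For Igf1 and Ghr alike, the WT tumours lay below every other library and the KO tumours around the livers. Hsd17b13, a lipid droplet enzyme on the negative side, differed by -1.60 ± 0.33 and missed the threshold when any of 4 libraries was left out.

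Fatty acid and triglyceride genes had 3 of 30 called positive and 1 negative, and 3 and 2 without KO tumour 2. Thrsp, a regulator of lipid synthesis, was at 19.0, 20.8 and 50.4 CPM in the WT tumours against 332 and 162 in WT liver, with 522, 395 and 511 in the KO tumours against 299 and 439.7 in KO liver, a difference of 3.41 ± 0.57 (adjusted p = 0.00482). G0s2, an inhibitor of the lipase that breaks down stored fat, differed by 2.96 ± 0.53, and Plin5, a lipid droplet coat protein, by 2.27 ± 0.45 (adjusted p = 0.0156), which missed the threshold without KO liver 1 or KO liver 2. No gene was called among 33 fatty acid oxidation genes or 25 cholesterol synthesis genes, where edgeR's medians were 0.42 and 0.14. Without KO tumour 2, and with library totals, 1 fatty acid oxidation gene was called negative. DESeq2 called 1 positive and 3 negative in the first list and 2 positive in the second.

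The negative genes were less stable than the positive ones. Of the 58, 7 were called in every alternative tried, against 97 of the 193 positive genes. Their number was 31 without WT tumour 2, 34 without WT tumour 3, 33 without KO liver 2 and 33 without KO tumour 3. Unc5b, a netrin receptor on chromosome 10 (60762593 to 60831581, minus strand), had the smallest p among them after Gm28438, an unprocessed pseudogene (-3.08 ± 0.46, adjusted p = 0.00246). Unc5b was at 64.4, 92.3 and 42.1 CPM in the WT tumours against 4.34 and 7.69 in WT liver, with 14.1, 9.98 and 14.1 in the KO tumours against 10.0 and 16.4 in KO liver. The WT tumours lay above all other libraries and the KO tumours within KO liver or close to it. The difference was -3.51 ± 0.57 (adjusted p = 0.00398). Tent5a, a poly(A) polymerase, was at 97.9, 85.3 and 71.2 CPM in the WT tumours against 13.1 and 14.1 in WT liver, with 21.0, 15.1 and 21.6 in the KO tumours against 14 and 16.2 in KO liver, a difference of -2.29 ± 0.39 (adjusted p = 0.00587). F11r, the junction protein JAM-A, differed by -1.68 ± 0.30, and A2ml1, a protease inhibitor of the macroglobulin family, by -3.29 ± 0.57. These 4 genes were called in every alternative tried.

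Some negative genes rest in part on a gap between the livers, at low counts. Smox, spermine oxidase, had 1139, 830 and 671 counts in the WT tumours against 27 and 5 in WT liver, with 113, 134 and 193 in the KO tumours against 110 and 47 in KO liver. Its difference of -4.60 ± 0.75 (adjusted p = 0.00419) missed the threshold with limma-voom. Hbegf, a ligand of the EGF receptor, had 325, 183 and 68 counts in the WT tumours against 1 and 0 in WT liver, with 46, 19 and 39 in the KO tumours against 94 and 44 in KO liver. The biliary keratin gene Krt23 had 270, 421 and 254 counts in the WT tumours against 1 and 0 in WT liver, with 49, 11 and 8 in the KO tumours against 50 and 24 in KO liver. In all 3 genes KO liver was above WT liver and WT tumours were above KO tumours. Fitted values for Hbegf and Krt23 depend on the near-empty WT livers and are not given as sizes. Per3, a circadian clock gene, was at 35.8, 64.3 and 57.4 CPM in the WT tumours against 3.77 and 8.64 in WT liver, with 24.5, 35.4 and 38.6 in the KO tumours against 34.8 and 26.6 in KO liver, so only WT liver stood apart at the low end. Its difference was -2.98 ± 0.54 (adjusted p = 0.00861). The labels used here do not state the time of day at which tissue was taken.

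Secreted liver proteins were the largest named group on the negative side, with 6 of 46 called negative and 1 positive, and the same numbers without KO tumour 2. The list's median was -0.25. Alb, albumin, was at 50498, 62170.0 and 51015 CPM in the WT tumours against 22804 and 24460.0 in WT liver, with 21397, 21993 and 26413 in the KO tumours against 28908 and 25331 in KO liver, a difference of -1.43 ± 0.31 (adjusted p = 0.0275). The WT tumours did not overlap the rest, but the gene missed the threshold, at 0.05 to 0.119, when any of 7 of the 10 libraries was left out, and with the replicate block. Ahsg, fetuin-A, was at 15008, 19935 and 15957 CPM in the WT tumours against 4586 and 5286 in WT liver, with 6155, 4056 and 6112 in the KO tumours against 5103 and 5542 in KO liver, a difference of -1.75 ± 0.34 (adjusted p = 0.0147), which missed without WT liver 1 or KO liver 2. Apoa1, the main protein of high density lipoprotein, differed by -1.79 ± 0.33 (adjusted p = 0.00949) and missed without KO liver 1. Kng1, Serpina1b and Itih2 were the other 3. Serpina3k, a male-biased protease inhibitor, was positive at 1.83 ± 0.34 (adjusted p = 0.0114) and missed without KO liver 1. These proteins take a large share of counts, and the share held by the Mup genes fell at the same time in WT tumours; the part of this in the scaled values was not tested beyond other scalings. With library totals in place of TMM the same list had 7 negative and 1 positive.

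Female-biased hepatocyte genes had 2 of 23 called negative and none positive, and 2 of 22 negative without KO tumour 2. The list's median was -0.90, and -1.19 when the 7 members with a group at 0 counts were set to the limit of 3 counts per library. Cyp2a4, a steroid hydroxylase, was at 2228, 1568 and 1923 CPM in the WT tumours against 24.0 and 42.4 in WT liver, with 378, 91.1 and 544 in the KO tumours against 53.5 and 113 in KO liver, a difference of -3.82 ± 0.75 (adjusted p = 0.0157). Lpl, lipoprotein lipase, was at 536, 675 and 646 CPM in the WT tumours against 29.8 and 28.6 in WT liver, with 185, 45.5 and 100.3 in the KO tumours against 39.4 and 32.1 in KO liver, a difference of -2.78 ± 0.56 (adjusted p = 0.0179). In both, the KO tumours lay between liver and the WT tumours except that KO tumour 2 fell within or near KO liver. Cyp2a4 missed the threshold without KO liver 2 and Lpl without KO tumour 3.

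Tumour and fetal markers had 2 of 31 called negative, Tstd1 (-2.94 ± 0.67, adjusted p = 0.0394) and the keratin gene Krt18 (-1.37 ± 0.32, adjusted p = 0.0446), and both missed the threshold when most single libraries were left out. Without KO tumour 2 the list also had 2 called negative, but not the same 2. Tstd1 was still called and Krt18 was not. Afp, alpha-fetoprotein, was at 452, 146 and 534 CPM in the WT tumours against 3.02 and 3.47 in WT liver, with 446, 3.84 and 169 in the KO tumours against 6.35 and 0.283 in KO liver. Its difference was -0.94 ± 1.65 (adjusted p = 0.907), with KO tumours 1 and 3 inside or near the WT range. Gpc3, glypican-3, was at 441, 609.7 and 349 CPM in the WT tumours against 1.13 and 0.378 in WT liver, with 46.9, 0.489 and 48.9 in the KO tumours against 0 and 4.96 in KO liver, a difference of -5.52 ± 1.83 (adjusted p = 0.193). The KO tumours were below every WT tumour, while the 2 KO liver libraries held 0 and 70 counts. The fitted value was -6.56 and called without KO liver 1, and 2.70 without KO liver 2. The fit without a filter on low counts also called it, but that fit gave no gene a spread of its own.

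Cell cycle genes had none of 45 called, with or without KO tumour 2, with a median of -1.69, or -1.53 with the 12 members that had a group at 0 counts set to the limit. Ccnd1, cyclin D1, was at 79.1, 63.5 and 69.8 CPM in the WT tumours against 14.7 and 6.24 in WT liver, with 33.9, 10.5 and 35.1 in the KO tumours against 17.8 and 17.3 in KO liver, a difference of -2.16 ± 0.64 (adjusted p = 0.128). DESeq2 and the replicate block each called 1 member negative. The MLK and JNK cascade had none of 24 called by edgeR or DESeq2, with a median of 0.04. Mapk8ip1, a JNK scaffold, and Mapk3 (ERK1) had its smallest p-values, with adjusted p of 0.341 and 0.416. Map3k10, which encodes MLK2, gave 0.24 ± 2.00, and Map3k9 (MLK1) had too few counts to be tested. Immediate early and ERK feedback genes had none of 27 called by edgeR and 4 negative by DESeq2. For p53 targets it was none of 26 and 1 negative. With 1.59% of all genes tested called by edgeR, no call in lists of these sizes is near that share.

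Mitochondrial genes leaned to one side without passing the test. All 13 mitochondrially encoded genes had values above 0, with a median of 0.73, and all 36 nuclear respiratory chain genes too, with a median of 0.53, against 8083 of 15811 genes tested. None was called by edgeR, while DESeq2 called 3 of 13 and 4 of 36, all positive. The mitochondrially encoded genes took 5.102%, 4.026% and 4.928% of counts in the WT tumours against 7.271% and 7.569% in WT liver, with 6.453%, 8.437% and 6.827% in the KO tumours against 7.214% and 7.722% in KO liver. WT tumours lay below the rest, and the log2 difference between responses was 0.62 (exact permutation p = 0.06667, adjusted 0.22).

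**Figure D5:**
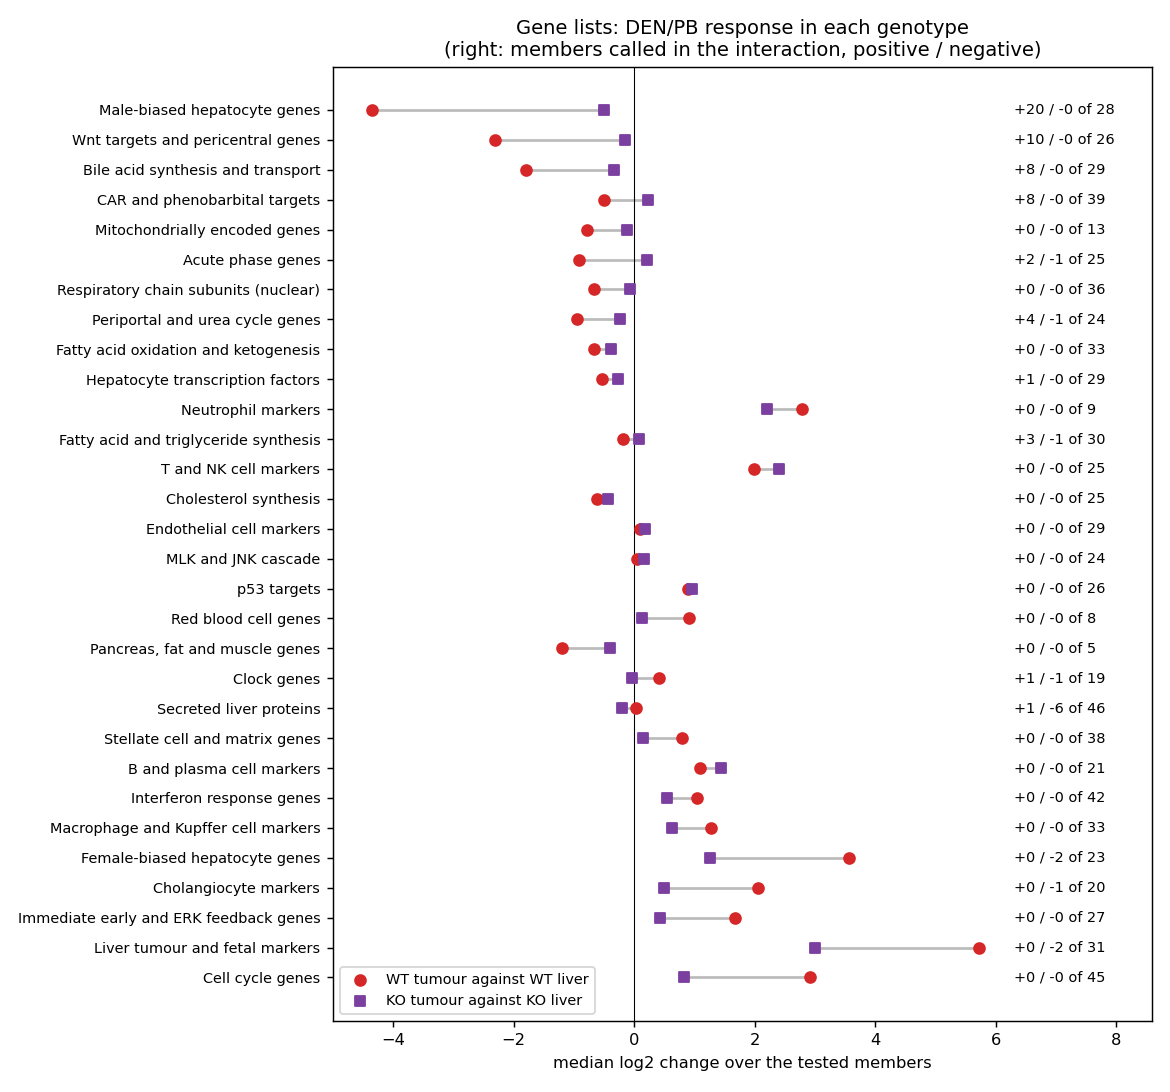
Median log2 change from liver to tumour over the tested members of 30 gene lists, in WT mice (red circles) and KO mice (purple squares), ordered by the median difference between responses; numbers at the right give members called positive and negative. Male-biased genes show the widest gap, from -4.36 to -0.51, and endothelial and MLK cascade genes sit near 0 in both genotypes.

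Acute phase genes depended on single libraries. Saa1 and Saa2, serum amyloid A genes, were called positive, and their counts differed widely within groups. Saa2 had 729, 72 and 165 counts in the WT tumours against 24085 and 3405 in WT liver, with 16052, 348 and 1606 in the KO tumours against 681 and 995 in KO liver. Both genes missed the threshold without KO liver 1 or 2 or without WT tumour 2 or 3. Il1rn, the interleukin-1 receptor antagonist, was called negative at -3.18 ± 0.71 (adjusted p = 0.0349) and missed when any of 8 libraries was left out. Of 25 members, 2 were called positive and 1 negative, and without KO tumour 2 it was 4 and 1.

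Markers of other cells were followed because they could move with the tumours. Of the lists for macrophages (33 genes tested), T and NK cells (25), B and plasma cells (21), neutrophils (9), endothelium (29), stellate cells and matrix (38), red blood cells (8), and pancreas, fat and muscle (5), none had a called member by edgeR with TMM scaling, with or without KO tumour 2. With the replicate block 1 macrophage gene was called positive and 1 negative, and 1 T and NK cell gene negative; with library totals 1 macrophage gene was called negative. By DESeq2 macrophages had 1 positive and 2 negative, and T and NK cells 1 and 1. The cholangiocyte list had 1 of 20, Krt23. In the main fit 1.59% of all genes tested were called, and the counts of these lists in that fit are near that share. The summed macrophage markers took 0.1567% to 0.2654% of counts in the WT tumours against 0.07557% to 0.08679% in WT liver, with 0.1243% to 0.2057% in the KO tumours against 0.09515% to 0.1243% in KO liver. Cholangiocyte markers took 0.08372% to 0.1207%, 0.02779% to 0.03152%, 0.03047% to 0.0746% and 0.02509% to 0.03408% in the same order. Stellate and matrix genes took 0.253% to 0.3554%, 0.1482% to 0.1552%, 0.1512% to 0.2221% and 0.1379% to 0.1404%. B and plasma cell markers took 0.107% to 0.1262%, 0.04931% to 0.05763%, 0.05088% to 0.0987% and 0.05747% to 0.06035%. For these 4 lists the highest single library was a WT tumour, and the KO tumours lay between the WT tumours and liver or overlapped one of them. The log2 differences between responses were -0.77, -1.10, -0.52 and -0.74 in that order, with exact permutation p of 0.08333, 0.1, 0.1667 and 0.03333, adjusted to 0.22, 0.22, 0.3056 and 0.1833. These differences were smaller when KO tumour 2 was left out, at -0.57, -0.76, -0.37 and -0.43. Neutrophil markers took 0.06549% to 0.09065% of counts in the WT tumours against 0.003887% to 0.007426% in WT liver, with 0.002475% to 0.0482% in the KO tumours against 0.001897% to 0.003388% in KO liver. The WT tumours lay above every KO tumour, and the difference between responses was -1.28 (p = 0.5667 by the same permutation, adjusted 0.5667). That value rests on KO tumour 2, since it was -0.003 when this library was left out. T and NK cell markers gave -0.59 (0.45, adjusted 0.495), red blood cell genes -0.53 (0.2667, adjusted 0.3667) and endothelial markers -0.21 (0.35, adjusted 0.4278), and in these 3 lists WT and KO tumours overlapped. The T and NK cell value was 0.02 when KO tumour 2 was left out. The part of these markers in the hepatocyte gene results was not tested. Genes of pancreas, fat and muscle took at most 0.01953% of counts in any library.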

How the data were processed

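RNA from 10 mouse livers or liver tumours (50 ng each) was made into QuantSeq 3' forward libraries, per the labels' protocols. The authors deposited raw counts of reads by gene, in 1 table and not normalized. BWA, featureCounts and mm10 are named in the submitters' processing notes; the labels used here state no version, annotation release or strand setting, so overlapping genes and near-identical copies are uncertain. A count is a read, not a molecule, and limits from counts cover counting error only.

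Of 39056 genes in the table, 15811 passed edgeR's filterByExpr (R 4.3.3, edgeR 4.0.16). Symbols were matched for 38872 identifiers and not for 184. After TMM scaling, all 10 libraries entered 1 quasi-likelihood fit with 4 group terms and no covariate. Biological variation was 71.8%, with 6 residual and 8.78 prior degrees of freedom. The series text calls replicates biological. Replicate pairs differed by 42.6 to 103 in chi-square per degree of freedom, so none was a duplicate. SE is the log2 change divided by the root of its F statistic.

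The members and the 30 gene lists (819 genes) were chosen with earlier results of these data known. Named genes were the 12 with the smallest p in each direction, taken from called genes that had no predicted or clone name and whose highest group mean was 10 CPM or more, up to 3 called members of each list (or the 2 smallest p as values), and Map3k11, Map3k9, Map3k10, Cyp2b10, Cyp2b9, Cyp2c55, Glul, Axin2, Lgr5, Afp, Gpc3, Mki67, Top2a, Igf1 and Alb. Other called list members were named after their values were seen. The model was also run on simulated data with equal group means except for changes placed in KO tumours. Most called genes changed in WT tumours instead, so that run is not used as support for the calls.

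Alternatives were DESeq2 1.42.0, limma-voom (limma 3.58.1), RLE factors, library totals, 2 filters, a replicate block and each of 10 libraries left out. Same-numbered WT and KO tumours gave correlations of their deviations of 0.0327, -0.0738 and -0.0294. Over all groups, same-numbered libraries gave -0.0738 to 0.104 and other pairs -0.104 to 0.112. The numbers thus gave no sign of pairing, though groups of this size cannot exclude it.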

Additional observations from a re-analysis of the deposited data

Results flagged for a closer look

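The response to DEN/PB differed between WT and KO mice by a test of the difference itself for 251 genes, and for 51 of the genes singled out by name. The cause was not tested for any of them. Values below are log2 differences between responses, KO minus WT, from edgeR, with an adjusted p under 0.05. Mup genes gave 7.82 for Mup10, 7.18 for Mup9, 6.48 for Mup6, 4.55 for Mup21, 6.76 for Mup16, 6.97 for Mup19, 7.22 for Mup12, 7.42 for Mup-ps17 and 7.5 for Mup-ps18. These are members of a family with near-identical copies and are not independent of each other.

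Other male-biased and bile acid genes gave 4.79 for Sult2a8, 6.87 for Elovl3, 6.35 for Cyp4a12b, 5.51 for Cyp7b1, 3.84 for Slco1b2, 3.17 for Slc10a1 and 1.83 for Serpina3k. Zonal genes gave 3.59 for Glul, 4.41 for Oat, 3.55 for Rgn, 3.91 for Cyp2f2, 3.95 for G6pc and 2.34 for Igf1, and the growth hormone receptor Ghr gave 2.25. Cyp2c genes, of which 4 of 15 tested were called, gave 4.59 for Cyp2c37, 3.91 for Cyp2c29 and 5.92 for Cyp2c54. Lipid genes gave 3.41 for Thrsp, 2.96 for G0s2 and 2.27 for Plin5. Nfil3, a repressor linked to the clock, gave 3.03 and missed the threshold without WT liver 1, KO liver 2, WT tumour 1, WT tumour 2, KO tumour 2 or KO tumour 3. Saa2 gave 8.65 and Saa1 7.34, both with wide spread within groups.

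On the negative side, Unc5b gave -3.51, Smox -4.60, Tent5a -2.29, A2ml1 -3.29, F11r -1.68, Per3 -2.98, Slc20a1 -2.03, Nckap1l -5.31 and Kyat1 -1.72. Slc20a1, a phosphate transporter, missed the threshold without WT liver 2, and Kyat1, a kynurenine aminotransferase, without WT liver 1 or KO liver 1. Secreted proteins gave -1.79 for Apoa1, -1.75 for Ahsg and -1.43 for Alb. The remaining values were -3.82 for Cyp2a4, -2.78 for Lpl, -3.18 for Il1rn, -2.94 for Tstd1 and -1.37 for Krt18. The fitted values of Krt23 (-9.43) and Hbegf (-8.92) rest on 1 count in all of WT liver and are no bound on the size.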

How the results depend on the processing

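No called gene changed direction under any of the 17 alternatives, and 97 of the 193 positive and 7 of the 58 negative genes were called in every alternative that tested them. DESeq2 called 654 genes (432 positive, 222 negative), among them all 251, and the fit to every gene with a count called 635 (432 and 203). In that unfiltered fit edgeR estimated infinite prior degrees of freedom, against 8.78 with the filter, so each gene was tested with the trend's spread and none of its own, and its calls are not used as support. RLE factors and library totals gave 246 each. With totals 69.5% were positive, against 76.9% with TMM, and the median of all genes moved from 0.0285 to -0.1. Limma-voom called 285, 202 of them shared, and the filter at a mean of 10 CPM called 265. Leaving out 1 library gave 171 to 287 calls, 138 to 215 positive and 31 to 72 negative. With the replicate block 255 were called (203 positive, 52 negative), 221 of them shared, and among the genes singled out by name Alb, Krt18 and Saa1 missed the threshold. The replicate numbers gave no sign of pairing, though groups of this size cannot exclude it.

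In WT mice DESeq2 called 2251, and single libraries left out gave 932 to 1499. In KO mice it was 383 with DESeq2, 1 with limma-voom, 22 with library totals, 386 without the filter, 1 at a mean of 10 CPM, and 3 to 202 leaving out 1 library. Between the livers it was 151, 0 with limma-voom (1168 genes at unadjusted p under 0.05), 111 without the filter, 0 at 10 CPM (530 genes), and 0 to 9 leaving out 1 library. Between tumours it was 1127 with DESeq2, 1181 without the filter, and 459 to 816 leaving out 1 library.

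Values that changed sign belong to genes that were not called. Mki67 gave -0.11 with limma-voom, Slc4a1 gave 0.038 with limma-voom and 0.86 with the replicate block, and Cyp2b9 gave -0.57 with DESeq2, -2.02 with limma-voom, -0.062 with library totals and -0.074 with the replicate block. Leaving out 1 library gave ranges of -2.20 to 2.61 for Afp, -0.19 to 13.53 for Cyp2b10, -2.98 to 1.05 for Cyp2b9, -4.44 to 10.86 for Cyp2c55, -6.56 to 2.70 for Gpc3, -0.85 to 0.83 for Lgr5, -4.25 to 1.26 for Map3k10, -0.33 to 3.83 for Mki67, -7.95 to 0.96 for Retnlg, -7.42 to 5.29 for Slc4a1 and -3.36 to 0.52 for Top2a. The cause was not tested. Groups of 2 and 3 libraries limit the precision, and where 1 library is left the fit assumes that it varies like the other groups. In 31 of the 251 genes a group held at most 3 counts per library, so the fitted sizes are not bounds.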

Other observations

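The genes in this section were chosen after their values were seen, so their counts carry no test. Genes of methionine, glycine and sulfur amino acid metabolism had 9 of 19 tested members called positive and none negative, 7 without KO tumour 2, against 1.59% of all genes tested, with a median change of -1.79 in WT and -0.52 in KO mice. Gnmt, which uses S-adenosylmethionine to methylate glycine, was at 344, 199 and 362 CPM in the WT tumours against 2446 and 3639 in WT liver, with 1194, 2032 and 1704 in the KO tumours against 2236 and 2482 in KO liver. Bhmt, which remethylates homocysteine with betaine, was at 92.1, 111 and 131 CPM in the WT tumours against 1514 and 1760.1 in WT liver, with 653, 676 and 399.8 in the KO tumours against 835 and 1042 in KO liver. For both, the WT tumours were lowest and the KO tumours fell between them and liver, and the differences were 2.81 ± 0.43 and 3.17 ± 0.37 (SE, edgeR adjusted p = 0.00246 and 0.000249). Csad, which makes hypotaurine, differed by 3.86 ± 0.56, while Mat1a, Ahcy and Cbs of the same pathway were not called. Carboxylesterase genes had 6 of 16 called positive (5 without KO tumour 2), and Nat8 acetyltransferase genes 5 of 8 (also 5), with WT medians of -2.08 and -3.48 and KO medians of -0.21 and -0.22. These are families of similar copies.

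A few genes had a larger fitted change in the KO mice than in WT mice. Leap2, which encodes a liver peptide that opposes ghrelin, was at 122, 259 and 125 CPM in the WT tumours against 264 and 525 in WT liver, with 1157, 482 and 982 in the KO tumours against 126 and 86.7 in KO liver. It rose in KO tumours (3.04, edgeR adjusted p = 0.021), its WT change was -1.23 (adjusted p = 0.074), and the difference of 4.27 ± 0.60 was called in all 17 alternatives. Wfdc2, a secreted protease inhibitor, was at 9.53, 3.06 and 6.99 CPM in the WT tumours against 17.4 and 19.4 in WT liver, with 43.1, 34.0 and 32.6 in the KO tumours against 10.1 and 7.15 in KO liver, with every KO tumour above all other libraries. Its difference of 3.57 ± 0.63 was called. The WT change of -1.49 passed edgeR's test (adjusted p = 0.044), while the KO change of 2.08 did not (adjusted p = 0.12). The mitochondrial import gene Timm22 was at 32.4 and 50.6 CPM in KO liver and 219 and 559 in WT liver, against 361 to 1046 in WT tumours and 368 to 1847 in KO tumours, so the livers differed more than the tumours. It missed the threshold in 8 of the 17 alternatives.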
